A study of Arabidopsis thaliana with 12 samples.

Results

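Gene expression in young leaves of the Columbia accession of Arabidopsis thaliana was compared between an early and a late stage of the same moderate drought. The quantity described is a difference of 2 drought effects: drought minus well-watered control on day 10, minus drought minus well-watered control on day 1. It rests on 8 of the 12 arrays of the series, with 2 arrays in each of 4 groups, and was computed for all 21461 probe sets that are not array controls. The title of the series names early responses that lead to acclimation, and this difference asks which responses of day 1 were smaller, larger or turned round on day 10.

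All plants grew in peat pellets at 22 °C with 10 h of light per day, and no mutant or transgenic line was used. Watering of the drought groups stopped at 30 days after sowing, and the pellets were then held at 30% of field capacity, with leaves taken on day 1 and on day 10. Each of these days had its own well-watered control. Leaves of 5 plants were pooled for each array, n therefore means pools, and 2 pools per group limit the precision of every value. The 4 arrays of a progressive drought to wilting and its control enter only an alternative fit. Values are log2 expression values, on which a difference of 1 unit is a doubling.

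A drying soil raises the hormone abscisic acid (ABA) in leaves. ABA binds PYR/PYL receptors, which then inhibit clade A protein phosphatases of type 2C and free SnRK2 kinases to activate transcription factors and genes for protective proteins such as dehydrins. Growth of young leaves depends on enzymes that loosen the cell wall, and both growth and defence are also set by jasmonate, whose signalling is held back by the JAZ repressor proteins.

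The deposited values of the 2 days had been normalised apart: sorted values differed on average by 0.0501 log2 units among the 4 arrays of day 1 and by 0.0586 among those of day 10, against 0.2168 over all 8. Levels were therefore set only against the control of the same day. A difference between the days does not show whether the drought pools or the control pools had moved. Replicate arrays correlated at 0.9967 (day 1 control), 0.9948 (day 1 drought), 0.9943 (day 10 control) and 0.9886 (day 10 drought), so the late drought pools were the least alike. The mean of 24 light-harvesting and photosystem genes, which mark green tissue, lay between 12.71 and 12.86 in all 8 arrays. The evening-phased clock genes set the late drought pools apart from each other: the mean of the 6 measured genes, set against the day 10 control mean, was −0.93 in drought replicate 1 and 0.26 in replicate 2. The range without each array is given for the main counts.

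Few single genes had a difference that passed the test. Of the 21461 probe sets, 12 were called at a Benjamini-Hochberg adjusted p under 0.05 in limma, a linear model that shares information on spread across probe sets. This is 0.0559% of those tested, with 6 higher on day 10 (0.028%) and 6 lower (0.028%). At an unadjusted p under 0.05, 2673 probe sets passed (12.5%), 1393 higher (6.49%) and 1280 lower (5.96%). The same fit called 143 probe sets on day 1 (0.666%), 88 higher (0.41%) and 55 lower (0.256%). It called 767 on day 10 (3.57%), 403 higher (1.88%) and 364 lower (1.7%). At an unadjusted p under 0.05, 14.6% of probe sets passed on day 1 (8.17% higher, 6.39% lower) and 17.9% on day 10 (10.5% higher, 7.39% lower). When the 4 arrays of progressive drought and its control also entered the estimate of spread, no difference was called, the smallest adjusted p was 0.0923, and 1472 probe sets had an unadjusted p under 0.05. Leaving out 1 array at a time gave between 0 and 511 called differences. The count was 0 without day 1 control replicate 2, without day 1 drought replicate 1 or without day 10 control replicate 2, and 1 without day 1 control replicate 1. It was 19 without day 1 drought replicate 2, 53 without day 10 drought replicate 1, 120 without day 10 control replicate 1 and 511 without day 10 drought replicate 2. The calls of each single day depended on the fit as well: with all 12 arrays 4 were called on day 1 and 23 on day 10, and with the 4 arrays of a day alone 187 on day 1 and 0 on day 10.

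**Figure D1:**
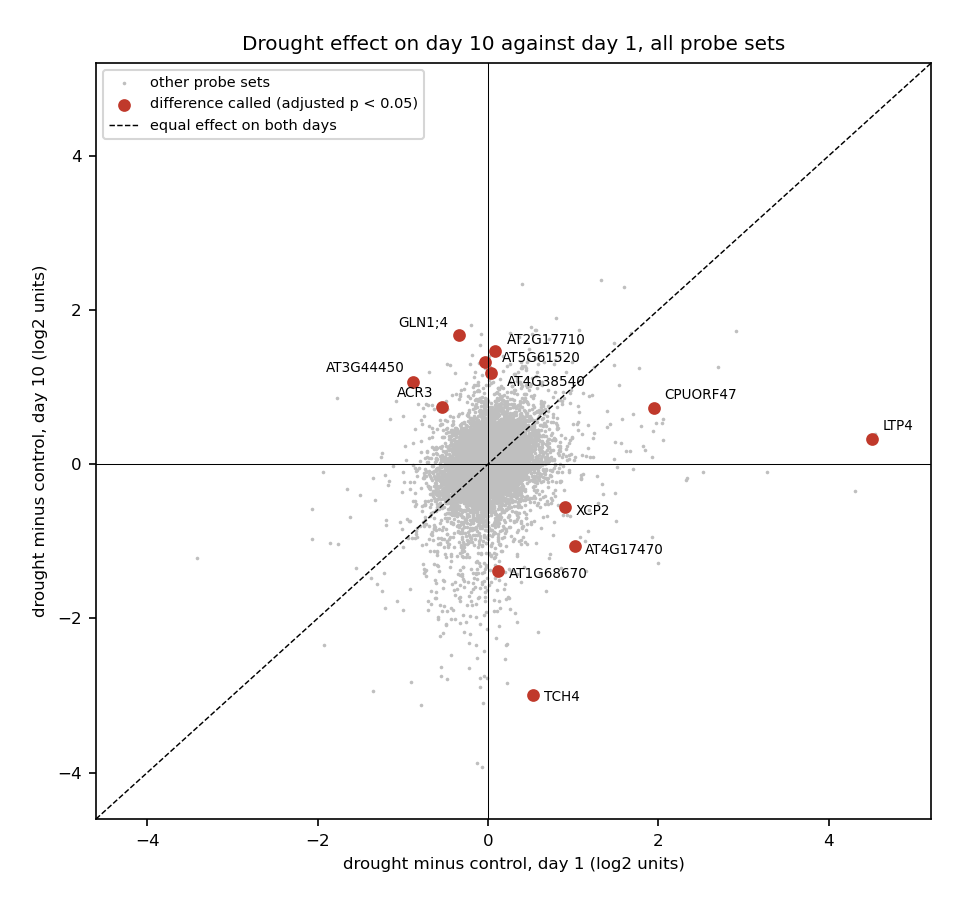
Drought minus control on day 10 (vertical axis, log2 units) against day 1 (horizontal axis, log2 units) for the 21461 probe sets, with the 12 called differences in red. LTP4 lies far to the right near 0 on the vertical axis (4.51 on day 1, 0.33 on day 10) and TCH4 far below 0 (0.53 and −2.99).

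The 12 called differences fell into a few forms. In 5 (TCH4, XCP2, ACR3, AT3G44450 and AT4G17470), the effect had opposite signs on the 2 days and was at least 0.5 log2 units on each. This form did not require either effect to pass, and only XCP2 and AT3G44450 were called on both days. Another 5 were mainly effects of day 10 and 2 were mainly effects of day 1, by a ratio of at least 2 between the absolute effects. The 6 that have a symbol in the RefSeq table are LTP4, TCH4, XCP2, CPUORF47, ACR3 and GLN1;4. The other 6 are given by locus code, without a role, and were named after their values were seen.

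LTP4 (AT5G59310), a lipid transfer protein of the kind secreted into the wall and cuticle, had the largest called difference in size. On day 1 it read 4.47 and 4.84 in the well-watered pools and 9.28 and 9.04 under drought. The day 10 values were 5.69 and 4.94 in the well-watered pools and 6.17 and 5.12 under drought. The groups stood far apart on day 1 and overlapped on day 10. Its drought effect was 4.51 ± 0.34 (SE, limma adjusted p = 0.00241) on day 1, which is 22.7-fold, and 0.33 ± 0.34 (adjusted p = 0.738) on day 10. The difference was −4.18 ± 0.49 (adjusted p = 0.0451).

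TCH4 (AT5G57560), a xyloglucan endotransglucosylase that remodels the wall and is known to respond to touch, showed the other pattern. Its day 1 values were 5.96 and 5.48 in control and 6.5 and 6.0 in drought. On day 10 it read 9.30 and 9.81 in control against 6.5 and 6.63 in drought. The day 10 groups were separated by more than the spread within either, and TCH4 fell by 2.99 ± 0.23 on the log2 scale there (limma adjusted p = 0.00194), while its day 1 effect of 0.53 ± 0.23 did not pass (adjusted p = 0.33). The difference was −3.52 ± 0.32 (adjusted p = 0.0305).

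GLN1;4 (AT5G16570), a cytosolic glutamine synthetase that fixes ammonium, had the largest called difference above 0. On day 1 the control pools read 4.63 and 4.61 and the drought pools 4.34 and 4.22. On day 10 the control pools read 7.28 and 6.99 and the drought pools 8.88 and 8.73. It rose 3.19-fold on day 10 (1.67 ± 0.12, limma adjusted p = 0.00194), against a day 1 effect of −0.34 ± 0.12 (adjusted p = 0.25), so that the difference was 2.01 ± 0.17 (adjusted p = 0.0305).

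XCP2 (AT1G20850), a cysteine protease of developing xylem vessels, rose on day 1 and fell on day 10. It read 6.96 and 6.94 in the day 1 controls and 7.83 and 7.86 under drought, then 6.08 and 6.20 in the day 10 controls and 5.73 and 5.45 under drought, with no overlap on either day. The effects were 0.90 ± 0.12 (limma adjusted p = 0.0213) and −0.55 ± 0.12 (adjusted p = 0.0403), and the difference was −1.45 ± 0.16 (adjusted p = 0.0451). ACR3 (AT1G76990), a protein with repeated ACT domains, went the other way: it read 8.63 and 8.48 in control and 8.02 and 8.01 in drought on day 1, then 8.80 and 8.56 in control and 9.44 and 9.40 in drought on day 10. Only the day 10 rise of 0.74 ± 0.11 passed (adjusted p = 0.0145, against 0.077 for −0.54 ± 0.11 on day 1), and the difference was 1.29 ± 0.16 (adjusted p = 0.0473).

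CPUORF47 (AT5G03190), whose symbol marks a conserved peptide encoded by an upstream open reading frame, rose on both days but less on day 10. It read 7.68 and 7.77 in control and 9.71 and 9.65 in drought on day 1. On day 10 it read 6.21 and 6.34 in control and 6.98 and 7.03 in drought. The rise was 3.87-fold on day 1 and 1.66-fold on day 10, and the difference was −1.22 ± 0.14 (limma adjusted p = 0.0451).

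The 6 called loci without a symbol moved in both directions. AT3G44450 fell on day 1 and rose on day 10: it read 8.43 and 8.66 in control against 7.59 and 7.74 in drought, then 6.62 and 6.58 in control against 7.82 and 7.5 in drought, a difference of 1.94 ± 0.19 (limma adjusted p = 0.0337). AT5G61520, AT2G17710 and AT4G38540 had day 1 effects within 0.08 of 0 and day 10 rises of 1.32, 1.47 and 1.18 log2 units. AT1G68670 fell by 1.39 on day 10 after 0.12 on day 1. AT4G17470 had effects of 1.02 ± 0.18 (adjusted p = 0.0513) and −1.06 ± 0.18 (adjusted p = 0.0208), and a difference of −2.08 ± 0.25 (adjusted p = 0.0473).

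**Figure D2:**
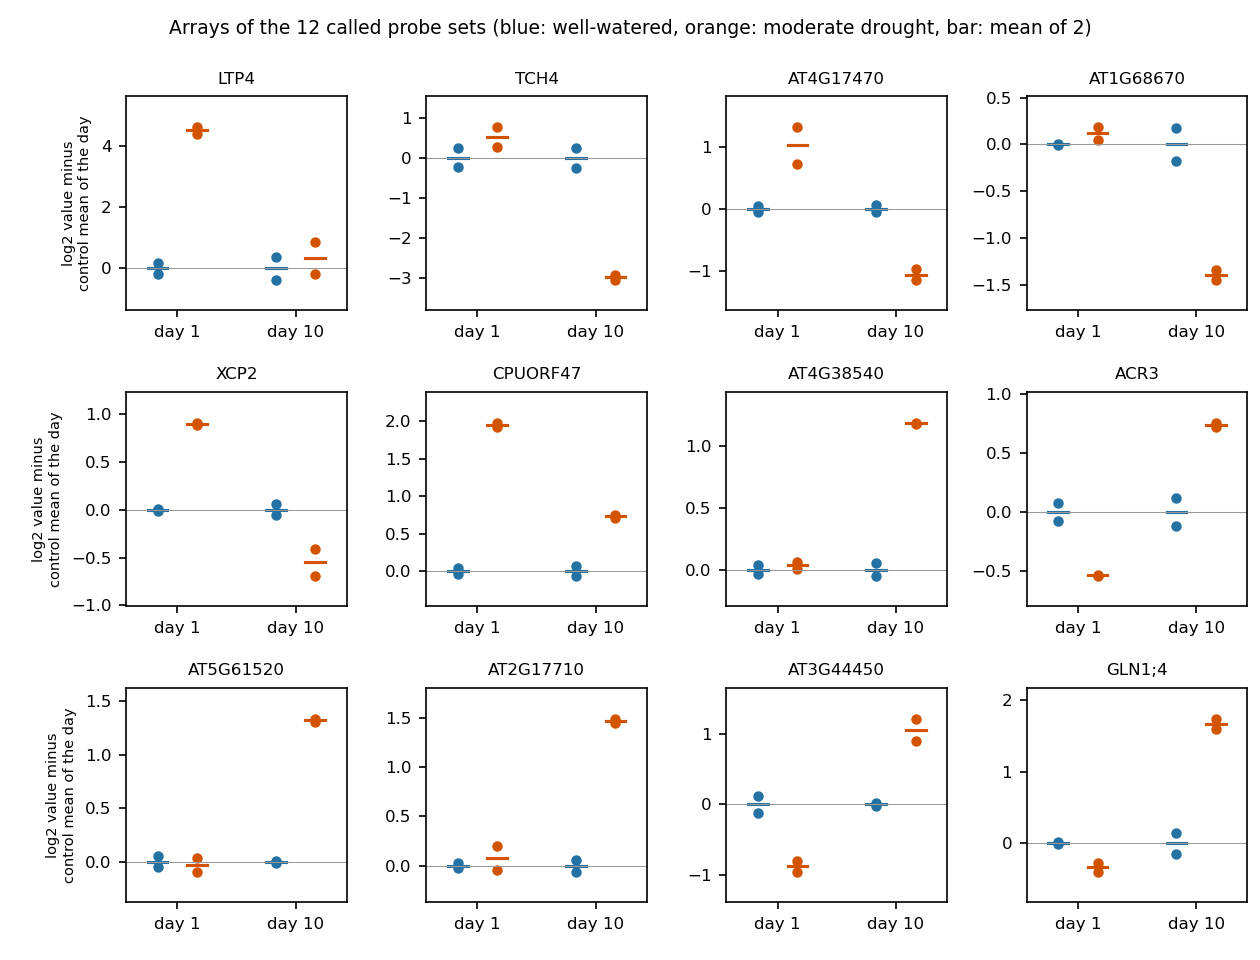
Each point is 1 array, given as its log2 value minus the mean of the well-watered arrays of the same day, for the 12 called probe sets (blue, well-watered; orange, drought; bars, means of 2). LTP4 and CPUORF47 stand highest on day 1, and TCH4 and AT1G68670 lowest on day 10. The drought means of TCH4, XCP2, ACR3, AT3G44450 and AT4G17470 lie on opposite sides of 0 on the 2 days.

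Most of what was called on day 1 was smaller on day 10. The 88 probe sets that rose on day 1 had a median effect of 1.04 there and of 0.22 on day 10. Of these, 66 kept their sign, 20 (22.7%) also rose on day 10, where 1.88% of all probe sets did, and 63 had less than 0.5 of their day 1 effect. The 55 that fell on day 1 had medians of −0.94 and −0.33; 42 kept their sign and 19 (34.5%) also fell on day 10, against 1.7% of all probe sets. In the other direction, the 403 that rose on day 10 (median 0.69) had a day 1 median of 0.15, and the 364 that fell (median −1.05) one of −0.23. These sets were picked for passing on one of the days, so the medians describe them and test nothing. Over all probe sets, the day 1 and day 10 effects had a Pearson correlation of 0.26, given as a description, since genes on the same arrays are not independent.

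Of the 42 probe sets called on both days, 39 went the same way and 3 went opposite ways. The 3 were XCP2, AT3G44450 and AT1G72900, which fell by 0.75 on day 1 and rose by 0.62 on day 10 and missed the threshold for the difference (limma adjusted p = 0.0529). Among the 39, HIS1-3 (AT2G18050), a linker histone known to respond to drought, read 7.33 and 7.55 in control and 9.32 and 8.74 in drought on day 1, then 7.83 and 7.33 in control and 9.83 and 9.91 in drought. It rose 3.0-fold on day 1 and 4.88-fold on day 10, with a difference of 0.70 ± 0.30 (adjusted p = 0.395). HAI2 (AT1G07430), a clade A phosphatase that damps ABA signalling, rose 3.20-fold and 3.25-fold, and its difference was 0.02 ± 0.34 (adjusted p = 0.991), with a sign that turned under 5 of the 15 alternatives. The boric acid channel NIP5;1 rose by 0.84 log2 units on both days, and the arabinogalactan protein AGP7 fell by 0.94 and 0.96. A p above the threshold does not show that the effects of the days were equal.

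Genes of the ABA and dehydration response were higher under drought on day 1 and not, as a group, on day 10. Of 24 measured genes, 5 rose and none fell on day 1, where 0.41% and 0.256% of all probe sets did. On day 10, 5 rose and 2 fell, against 1.88% and 1.7%. With all 12 arrays in the fit, none rose on day 1, and 1 rose and none fell on day 10. With the 4 arrays of each day alone, 5 rose on day 1 and none was called on day 10. The median effect was 0.74 on day 1, with 23 of 24 above 0, and 0.00 on day 10, with 12 above 0. Over all probe sets the medians were 0.012 and 0.017, with 53.0% and 54.7% above 0. The median difference was −1.07 with 20 below 0, against 0.0069 over all probe sets, of which 51.2% were above 0. No difference in the list was called, and 14 were lower and 3 higher at an unadjusted p under 0.05, where 5.96% and 6.49% of all probe sets were. Without 1 array, between 0 and 9 rose on day 1 and between 0 and 6 on day 10. Array by array, the mean of the list stood 1.26 and 0.86 above the control mean in the day 1 drought pools, and at 0.04 and −0.18 in the day 10 drought pools.

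LEA7 and RAB18 had the lowest differences of the list. LEA7 (AT1G52690), a late embryogenesis abundant protein, read 3.72 and 3.91 in control and 9.09 and 7.16 in drought on day 1, then 5.40 and 4.98 in control and 5.35 and 4.32 in drought. The groups stood apart on day 1, with drought replicates that differed widely from each other, and overlapped on day 10. Its rise on day 1 was 19.8-fold (4.31 ± 0.55, limma adjusted p = 0.0213), and its difference of −4.66 ± 0.78, larger in size than any called one, missed the threshold (adjusted p = 0.0786). RAB18 (AT5G66400), a dehydrin, read 5.73 and 5.92 in control and 9.62 and 8.57 in drought on day 1, then 7.27 and 7.17 in control and 7.93 and 6.31 in drought. It rose 9.63-fold on day 1, the day 10 drought pools lay on either side of the controls, and the difference was −3.37 ± 0.68 (adjusted p = 0.124). The dehydrin LTI30 rose by 1.84 ± 0.32 on day 1 (adjusted p = 0.0482) and stood at 0.18 ± 0.32 on day 10. LTI65 (RD29B), a widely used ABA reporter, had effects of 1.92 ± 0.39 (adjusted p = 0.0786) and 0.10 ± 0.39, neither of which passed. LTI78 (RD29A) and COR15A, both cold- and dehydration-responsive, had differences of −0.45 ± 0.33 and −1.29 ± 0.44 (adjusted p = 0.642 and 0.28).

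Several regulators and the oil-body protein RD20 had effects above 0 on day 1 and below 0 on day 10. RD26 (AT4G27410), a NAC transcription factor, read 6.90 and 7.22 in control and 8.56 and 7.86 in drought on day 1. The day 10 values were 9.69 and 10.23 in control and 8.75 and 8.38 in drought. The order of the groups was thus turned round without overlap on either day. It fell by 1.39 ± 0.26 on day 10 (limma adjusted p = 0.0278), its day 1 effect of 1.15 ± 0.26 did not pass (adjusted p = 0.0978), and the difference of −2.54 ± 0.37 had an adjusted p of 0.072. The related factor NAC019 had effects of 1.17 ± 0.23 and −0.86 ± 0.23, and RD20 of 1.14 ± 0.37 and −0.99 ± 0.37, none of which passed. NAC3 (AT3G15500) fell by 1.77 ± 0.19 on day 10 (adjusted p = 0.00542) from a day 1 effect of 0.12 ± 0.19. These NAC factors are known to respond to jasmonate as well as to ABA.

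Members of the same list that were higher on day 10 were signalling components. The homeobox factor HB-7 rose on both days, by 1.77 ± 0.21 and 1.24 ± 0.21 (limma adjusted p = 0.0183 and 0.0217), and HB-12 rose on day 10 by 0.94 ± 0.20 (adjusted p = 0.046). ABF1 and ABF4, bZIP factors that bind ABA-responsive elements, rose on day 10 by 1.03 ± 0.21 and 0.68 ± 0.11, as did the receptor kinase RPK1 by 1.04 ± 0.13. The day 1 effect of ABF1 was −0.03 ± 0.21, and its difference was 1.06 ± 0.30 (adjusted p = 0.208).

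Upstream of these genes, 3 of 9 phosphatases rose and 2 of 10 receptors fell on day 1, where 0.41% and 0.256% of all probe sets did. With all 12 arrays in the fit, no phosphatase rose and no receptor fell on day 1. All 9 measured clade A phosphatases had day 1 effects at or above 0 (median 0.71), and PP2CA, ABI2 and HAI2 rose. On day 10 the median was 0.26 and only HAI2 rose among the 9, where 1.88% of all probe sets did. HAI1 went from 1.1 ± 0.22 to 0.12 ± 0.22 and PP2CA from 0.96 ± 0.11 to 0.31 ± 0.11, with differences of −0.98 ± 0.31 and −0.65 ± 0.16 (limma adjusted p = 0.25 and 0.163). Among 10 measured PYR/PYL receptors the median effect was −0.30 on day 1 and −0.02 on day 10. PYL4 (AT2G38310) read 9.02 and 8.77 in control and 7.27 and 7.27 in drought on day 1, then 7.77 and 7.78 in control and 7.47 and 6.71 in drought. It fell by 1.62 ± 0.21 on day 1 (adjusted p = 0.0235) and stood at −0.69 ± 0.21 on day 10 (adjusted p = 0.124). PYL5 fell by 1.33 ± 0.14 on day 1 and stood at −0.46 ± 0.14 on day 10, and neither difference between the days was called. RCAR1 rose by 0.57 ± 0.1 on day 10 (adjusted p = 0.0277). The 12 genes of ABA synthesis and breakdown had no called effect on day 1 or day 10, where 0.666% and 3.57% of all probe sets were called. Their median difference was −0.05.

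Of 6 measured lipid transfer proteins, 3 rose on day 1, where 0.41% of all probe sets did, and none was called on day 10, where 3.57% were. With all 12 arrays in the fit, 1 of the 6 rose on day 1. All 6 had day 1 effects above 0 and differences below 0 (median −1.0). The 3 that rose were LTP2, LTP3 and LTP4, and LTP2 was higher on day 10 at an unadjusted p under 0.05. LTP3 (AT5G59320) read 5.15 and 5.83 in control and 9.92 and 10.14 in drought on day 1. On day 10 it read 7.72 and 7.65 in control and 8.81 and 7.35 in drought. Drought and control stood far apart on day 1 and overlapped on day 10. Its difference of −4.14 ± 0.57 was close to that of LTP4 in size and missed the threshold (limma adjusted p = 0.064). LTP3 and LTP4 have neighbouring locus codes and belong to the same family, and how far their probes respond to each other's RNA was not tested. LTP2 rose 3.49-fold on day 1 and had a difference of −1.31 ± 0.26 (adjusted p = 0.115). The abundant LTP1 (listed as LP1, AT2G38540) had effects of 0.50 ± 0.12 and −0.20 ± 0.12.

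**Figure D3:**
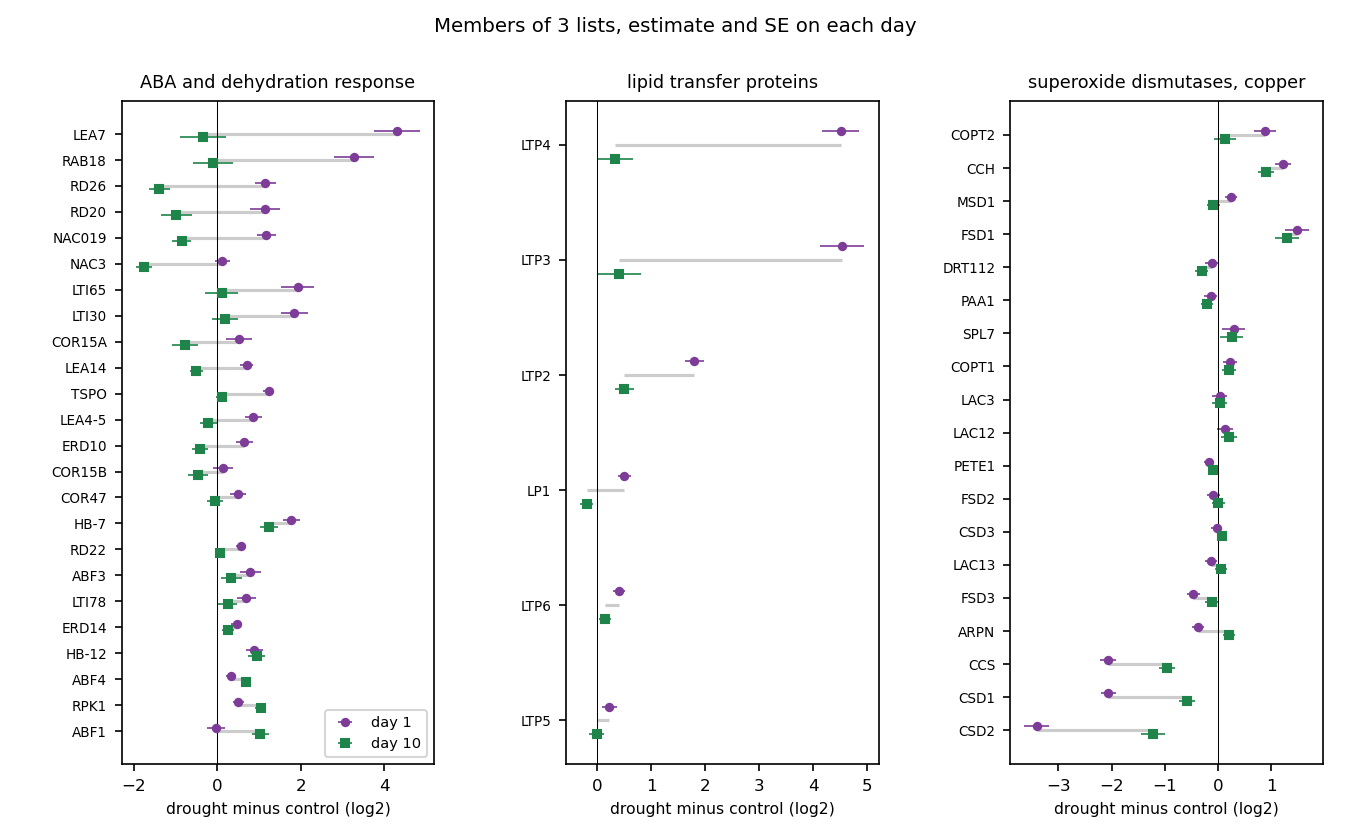
Drought minus control in log2 units (points, with SE bars from the 8-array fit) on day 1 (purple circles) and day 10 (green squares) for measured members of 3 lists, ordered by the difference. LEA7, RAB18, LTP3 and LTP4 lie far right on day 1 and near 0 on day 10, and CSD2, CSD1 and CCS lie far left on day 1 and closer to 0 on day 10.

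Of 19 measured genes of superoxide dismutases and copper homeostasis, 3 fell (CSD1, CSD2 and CCS) and 2 rose (FSD1 and CCH) on day 1, against 0.256% and 0.41% of all probe sets. With all 12 arrays in the fit, 1 fell and none rose on day 1. On day 10, CSD2 and CCS fell and FSD1 and CCH rose, against 1.7% and 1.88%, and no difference between the days was called. CSD2 (AT2G28190), the copper/zinc dismutase of chloroplasts that removes superoxide, read 11.22 and 11.54 in control and 7.96 and 7.99 in drought on day 1. The day 10 values were 11.53 and 11.36 in control and 9.82 and 10.64 in drought. Drought lay below control in every array on both days. It fell by 3.41 ± 0.23 on day 1 and by 1.22 ± 0.23 on day 10 (limma adjusted p = 0.00201 and 0.031), and the difference was 2.19 ± 0.33 (adjusted p = 0.0759). The cytosolic enzyme CSD1 fell by 2.06 ± 0.15 on day 1 and stood at −0.58 ± 0.15 on day 10 (adjusted p = 0.0808), a difference of 1.49 ± 0.22 (adjusted p = 0.0721). CCS, the chaperone that loads copper onto both, fell by 2.07 ± 0.15 and 0.97 ± 0.15, a difference of 1.1 ± 0.21 (adjusted p = 0.109). The third copper/zinc dismutase, CSD3, had effects of −0.03 ± 0.1 and 0.07 ± 0.1, neither of which passed.

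The iron enzyme that can stand in for these dismutases, FSD1 (AT4G25100), rose on both days. It read 10.08 and 9.56 in control and 11.22 and 11.37 in drought on day 1, then 9.16 and 9.41 in control and 10.85 and 10.30 in drought, which is a 2.78-fold and a 2.45-fold rise. The copper chaperone CCH also rose on both days, by 1.22 ± 0.15 and 0.90 ± 0.15. Their differences of −0.19 ± 0.31 and −0.32 ± 0.21 did not pass. Over all 19 measured genes of the list, which also holds plastocyanins and copper transporters, the median difference was 0.07. SPL7, the regulator of copper deficiency, had effects of 0.29 ± 0.21 and 0.25 ± 0.21, and neither passed.

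Of 21 measured iron genes, 2 rose and 2 fell on day 1, against 0.41% and 0.256% of all probe sets, and no difference between the days was called. With all 12 arrays in the fit, 1 rose and none fell on day 1. FER1 (AT5G01600), a ferritin that stores iron in plastids, read 6.99 and 6.91 in control and 9.86 and 9.44 in drought on day 1, then 9.51 and 9.83 in control and 10.95 and 10.90 in drought. It rose 6.5-fold on day 1 and 2.39-fold on day 10, and the difference of −1.45 ± 0.22 missed the threshold (limma adjusted p = 0.0759). On day 1 the iron-nicotianamine transporter YSL2 rose by 1.2, while the iron-deficiency regulators bHLH39 and BTS fell by 1.66 and 0.99. On day 10 these 3 stood at 0.10, −0.33 and −0.24 and none passed. The median effect of the list was −0.02 on day 1 and −0.01 on day 10, and FER1 was its only member called on day 10.

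Among the 35 lists, the jasmonate response had the most members that fell on day 10. Of 21 measured response genes, none was called on day 1 and 9 fell on day 10, where 1.7% of all probe sets did. The median effect was −0.03 on day 1 and −1.62 on day 10. The median difference was −1.48, the lowest of the 35 lists, with 16 lower and 1 higher at an unadjusted p under 0.05 and no single difference called. The 9 included the repressors JAZ1, JAZ2 (listed as TIFY10B), JAZ3, JAZ7, JAZ8, JAZ9 (listed as TIFY7) and JAZ10, the transcription factor ORA47 and CYP94C1, an enzyme that oxidises the active hormone. Without 1 array, between 2 and 13 fell, with 2 when either day 1 control or day 10 control replicate 2 was left out, and 3 without day 10 drought replicate 1.

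JAZ10 (AT5G13220) read 7.39 and 7.02 in control and 8.20 and 6.10 in drought on day 1. On day 10 it read 8.98 and 9.63 in control and 5.84 and 6.58 in drought. The drought pools of day 1 lay on either side of the controls and those of day 10 lay clearly below them. JAZ10 fell by 3.09 ± 0.58 on day 10 (limma adjusted p = 0.028), and its difference was −3.03 ± 0.82 (adjusted p = 0.19). JAZ7 (AT2G34600) read 4.74 and 4.56 in control and 5.06 and 4.08 in drought on day 1, then 9.20 and 10.30 in control and 4.52 and 7.13 in drought. It fell 15.1-fold on day 10, with drought replicates that differed by more than any other group of its arrays, and its difference was −3.85 ± 1.04 (adjusted p = 0.192). CYP94C1 read 6.87 and 6.86 in control and 7.18 and 6.53 in drought on day 1, then 8.44 and 9.30 in control and 5.89 and 6.31 in drought, a difference of −2.76 ± 0.42 (adjusted p = 0.0759). MYC2, the main activator of the pathway, had effects of −0.29 ± 0.42 and −1.52 ± 0.42 (adjusted p = 0.092), and MYC3, MYC4 and the receptor COI1 were not lower on day 10 (−0.02, 0.45 and 0.60, none of which passed).

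The enzymes that make jasmonate had effects below 0 on day 10 as well. Of 11 measured, none was called on day 1, where 0.666% of all probe sets were. LOX4 and OPCL1 fell on day 10, by 3.12 ± 0.67 and 1.39 ± 0.28, where 1.7% of all probe sets fell. Neither was called with all 12 arrays in the fit or with the 4 arrays of day 10 alone. The median effect was −0.10 on day 1 and −0.97 on day 10, and 10 of 11 differences were below 0. AOC3, an allene oxide cyclase, had effects of 0.68 ± 0.40 and −1.65 ± 0.40 and a difference of −2.33 ± 0.56 (limma adjusted p = 0.163). The mean of the response list was 8.43 and 8.86 in the day 10 controls and 7.0 and 7.46 in the day 10 drought pools, and 7.12 and 7.09 in the day 1 controls and 7.63 and 6.83 in the day 1 drought pools. On each day the list mean can be read only against its own control.

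Some quickly inducible genes were lower with the jasmonate genes on day 10. In the list of 24 touch, wound and cold-factor genes, 5 fell on day 10, where 1.7% of all probe sets did (0 to 5 without 1 array): the transcription factors WRKY40 (−2.26) and WRKY18 (−2.82), the calmodulin-like TCH2 (−1.66), the zinc finger STZ (−1.05) and ERF13 (−0.78). The list as a whole had a median difference of −0.03, and WRKY33 and DREB1A had day 10 effects of 1.28 ± 0.32 and 1.65 ± 0.48, which did not pass. Of 20 salicylate and defence genes, BGL2 (PR2) and PR5 fell and CBP60G rose on day 10, where 1.7% and 1.88% of all probe sets did. The median difference of these 20 genes was −0.16. The part of touch or wounding in these values was not tested.

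**Figure D4:**
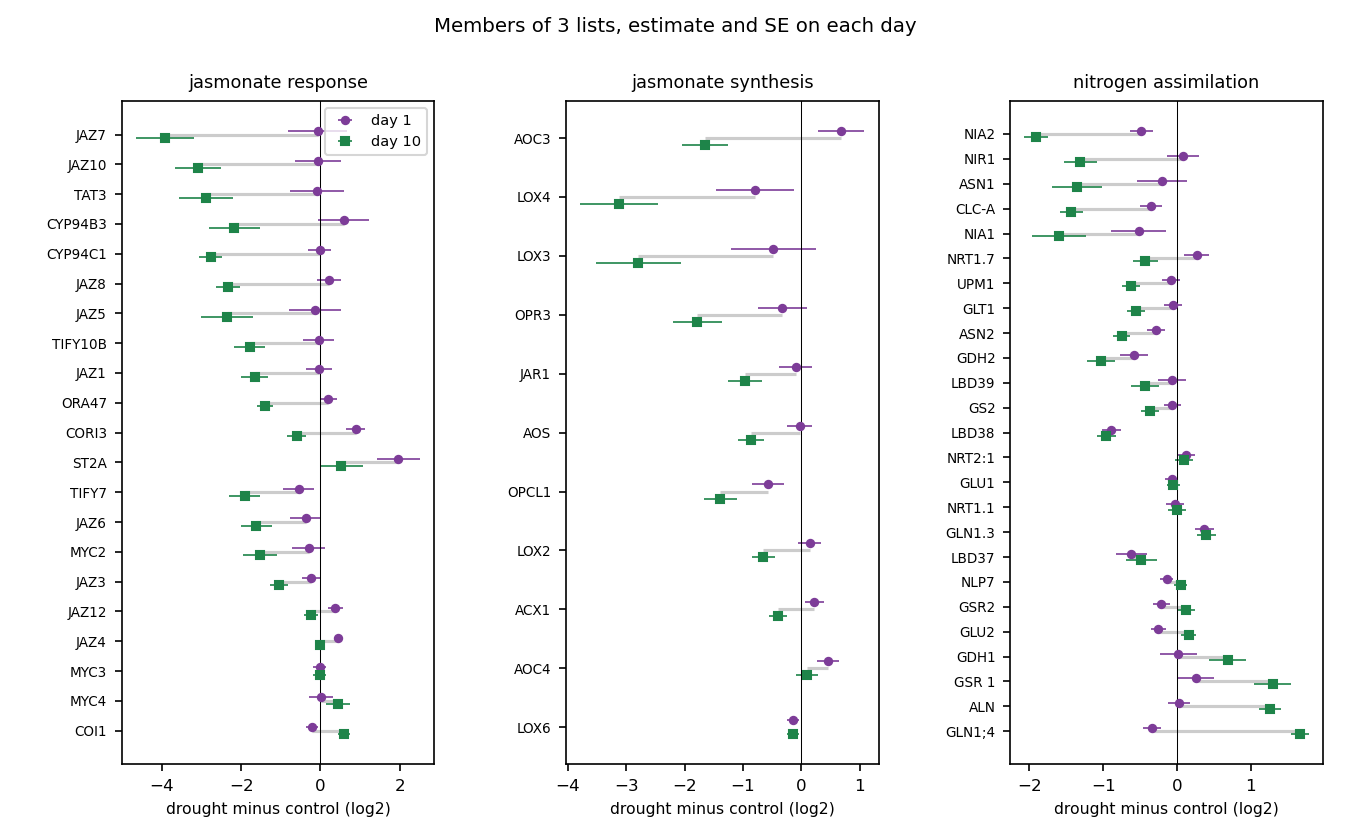
Drought minus control in log2 units (points, with SE bars from the 8-array fit) on day 1 (purple circles) and day 10 (green squares) for the jasmonate response, jasmonate synthesis and nitrogen lists, ordered by the difference. Most jasmonate genes lie near 0 on day 1 and between about −1 and −4 on day 10, while GLN1;4 and NIA2 lie at opposite ends of the nitrogen list on day 10.

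Most calls among wall-loosening and wall-protein genes were falls on day 10. Among 23 xyloglucan endotransglucosylase (XTH) genes, none was called on day 1 and 6 fell on day 10, where 1.7% of all probe sets did, including XTH25 by 2.19 ± 0.21 and XTH16 by 1.45 ± 0.14. XTH25 had a difference of −1.66 ± 0.30 (limma adjusted p = 0.0966) and XTH16 of −0.72 ± 0.20 (adjusted p = 0.209). The median difference of the list was −0.18. Of 15 fasciclin-like arabinogalactan proteins, FLA9 fell on both days, by 1.22 and 1.41, and 5 fell on day 10. Without 1 array, between 3 and 7 XTH genes and between 3 and 5 fasciclin-like genes fell on day 10. FLA13 (AT5G44130) read 9.69 and 9.44 in control and 8.77 and 9.18 in drought on day 1, then 9.07 and 9.27 in control and 7.18 and 7.20 in drought. Drought was below control on both days and the gap was wider on day 10, with a difference of −1.39 ± 0.22 (adjusted p = 0.0786).

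The expansins, which loosen walls without cutting them, went both ways. Of 18 measured, 1 rose and 1 fell on day 1, against 0.41% and 0.256% of all probe sets. On day 10, 2 rose and 2 fell, against 1.88% and 1.7%. Expansin-like EXLA1 (AT3G45970) fell by 1.35 ± 0.22 on day 1 and by 2.94 ± 0.22 on day 10, and EXLA2 fell on day 10 by 1.28 ± 0.17 after −0.10 ± 0.17 on day 1. Against these, EXPB3 rose on both days (0.78 and 0.93) and EXPA8 rose on day 10 (1.32). The growth-linked EXORDIUM gene EXO (AT4G08950) read 6.10 and 5.86 in control and 5.86 and 5.91 in drought on day 1, then 9.24 and 10.03 in control and 6.0 and 7.74 in drought. It fell by 2.77 ± 0.48 on day 10 (limma adjusted p = 0.0224), and its difference was −2.68 ± 0.68 (adjusted p = 0.177). The 23 cell division and DNA replication genes had medians of −0.15 and −0.18 on the 2 days and a median difference of 0.00. PCNA1 was their only member called, and it fell on day 10 (−0.68 ± 0.11), where 1.7% of all probe sets did.

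Nitrogen genes changed on day 10 in both directions. Of 25 genes of nitrate uptake, nitrate reduction and ammonium assimilation, LBD38 alone was called on day 1 (−0.89 ± 0.13). On day 10, 3 rose and 7 fell, where 1.88% and 1.7% of all probe sets did. With all 12 arrays in the fit, 2 rose and 2 fell on day 10, and with the 4 arrays of day 10 alone none did. Without 1 array, between 2 and 5 rose and between 2 and 9 fell. NIA2 (AT1G37130), the main nitrate reductase of leaves, read 7.23 and 7.19 in control and 6.53 and 6.94 in drought on day 1, then 10.67 and 10.75 in control and 8.96 and 8.63 in drought. It fell 3.77-fold on day 10, with a difference of −1.44 ± 0.22 that missed the threshold (limma adjusted p = 0.0759). Nitrite reductase NIR1 fell by 1.31 ± 0.22 and the vacuolar nitrate exchanger CLC-A by 1.43 ± 0.15, as did GDH2, ASN2, UPM1 and LBD38. The 3 that rose were GLN1;4, the cytosolic glutamine synthetase GLN1;1 (listed as GSR 1, AT5G37600) by 1.3 ± 0.25, and ALN, the allantoinase of purine breakdown, by 1.26 ± 0.15. ALN read 6.18 and 5.77 in control and 6.11 and 5.90 in drought on day 1, then 7.45 and 7.55 in control and 8.81 and 8.71 in drought, and its difference was 1.23 ± 0.21 (adjusted p = 0.0786). The plastid glutamine synthetase GS2 had effects of −0.06 ± 0.12 and −0.36 ± 0.12, and neither passed.

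Of 21 measured genes of senescence and chlorophyll breakdown, 4 rose and 1 fell on day 10, against 1.88% and 1.7% of all probe sets, and no difference was called. With all 12 arrays in the fit, or with the 4 arrays of day 10 alone, none of the 21 was called on day 10. NAP (AT1G69490), a NAC factor of leaf senescence, read 5.49 and 5.13 in control and 6.65 and 6.63 in drought on day 1, then 7.53 and 6.62 in control and 10.06 and 8.87 in drought. It rose 5.25-fold on day 10 (limma adjusted p = 0.0183), its day 1 effect of 1.33 ± 0.38 did not pass, and the difference was 1.06 ± 0.54 (adjusted p = 0.485). NAC6 (AT5G39610, known as ORE1) rose by 2.34 ± 0.39 and the NAC gene at AT3G29035 by 1.54 ± 0.24 on day 10, with differences of 1.94 ± 0.55 and 1.64 ± 0.33 (adjusted p = 0.211 and 0.124). NYE1, which removes magnesium from chlorophyll, rose by 0.71. The senescence protease gene SAG12 was at −0.01 and −0.02, and the ribonuclease RNS1 rose on day 1 by 1.62 and stood at 0.17 on day 10. The dark-inducible gene DIN10 fell by 1.48 on day 10, and the regulator WRKY6 was at 0.12 (adjusted p = 0.765). The median effect of the list was 0.22 on day 1 and 0.12 on day 10. Its mean stood 0.54 above the day 10 control mean in drought replicate 1, the pool with the low evening-phased clock genes, and 0.07 above it in replicate 2. Leaving out 1 array gave between 0 and 5 members that rose on day 10.

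Among water channels and sugar genes, no difference between the days was called. All 12 aquaporins had differences below 0 (median −0.36, range −0.66 to −0.01), none was called, and 3 passed at an unadjusted p under 0.05, where 12.5% of all probe sets did. The vacuolar channels DELTA-TIP and GAMMA-TIP fell on day 10 by 1.14 and 0.90, where 1.7% of all probe sets fell. PIP2;5 rose on day 1 by 0.71, where 0.41% of all probe sets rose. All 12 genes of galactinol, raffinose and starch breakdown had day 1 effects above 0 (median 0.39), against 5 above 0 on day 10 (median −0.07). Of these 12 genes, 1 rose on day 1, against the same 0.41%. The median difference of the list was −0.37. At an unadjusted p under 0.05, 6 differences were lower and none higher, where 5.96% and 6.49% of all probe sets were. GolS1, a galactinol synthase, went from 0.96 ± 0.34 to −0.68 ± 0.34, neither of which passed. ERD5 (AT3G30775), the proline dehydrogenase that breaks proline down, had similar effects on both days, −1.55 ± 0.27 (limma adjusted p = 0.0546) and −1.34 ± 0.27 (adjusted p = 0.0375).

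Photosynthesis genes showed no difference between the days that the test could detect. None of 24 light-harvesting and photosystem genes and none of 16 Calvin cycle enzymes was called on either day or for the difference. Of all probe sets, 0.666% were called on day 1, 3.57% on day 10 and 0.0559% for the difference. For the difference, none passed at an unadjusted p under 0.05 either, where 12.5% of all probe sets did. On day 10 alone, 7 Calvin cycle enzymes and 2 light-harvesting genes were lower at an unadjusted p under 0.05, where 7.39% of all probe sets were. The light-harvesting list had medians of 0.01 and −0.02, with differences between −0.32 and 0.23. The Calvin cycle list had medians of −0.08 and −0.23, with differences between −0.55 and 0.15.

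**Figure D5:**
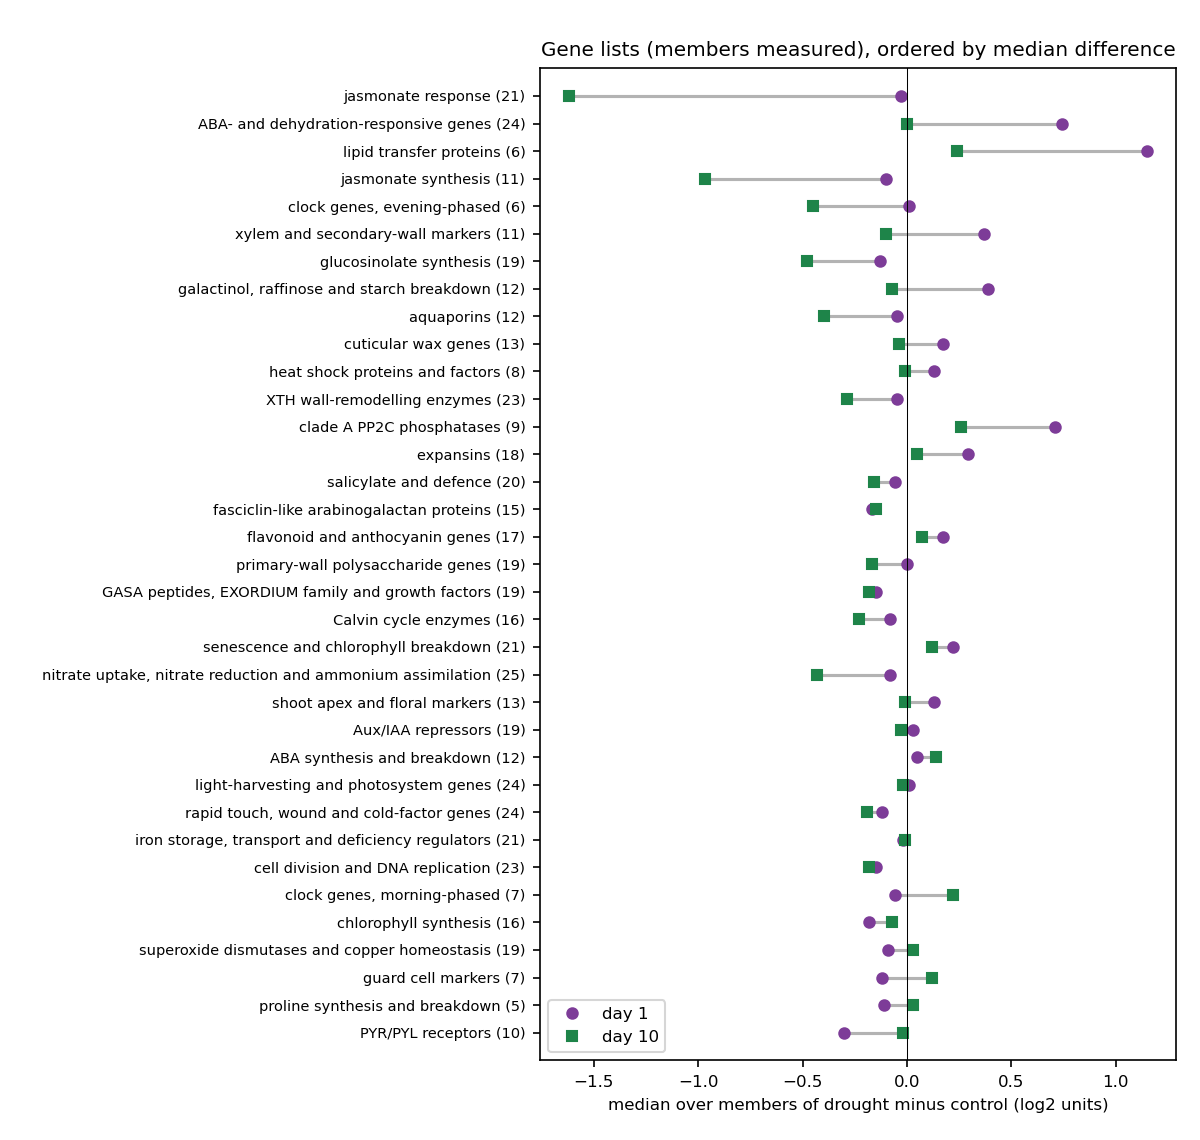
Median over the measured members (numbers in brackets) of drought minus control in log2 units on day 1 (purple circles) and day 10 (green squares) for 35 gene lists, ordered by the median difference. The jasmonate response (−0.03 to −1.62) and the ABA- and dehydration-responsive genes (0.74 to 0.00) are at the top, and the light-harvesting genes (0.01 to −0.02) lie on 0.

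Among the markers of other cell types, those of xylem moved with part of these effects. All 11 xylem and secondary-wall markers had differences below 0, with a median of −0.44. Their mean stood 0.38 and 0.45 above control in the day 1 drought pools, and at −0.02 and −0.24 in the day 10 drought pools. XCP2 was the only member called on either day. Besides XCP2, the lignin laccase LAC17 had a difference of −1.08 ± 0.23 (limma adjusted p = 0.133), and the cellulose synthases IRX3, IRX1 and CESA4 of −0.64, −0.28 and −0.44. In pooled leaves, fewer cells of a type and less RNA per cell cannot be told apart. The 7 guard cell markers had a median difference of 0.16, with 4 above 0 and 3 below. The potassium channel GORK was up by 0.70 on day 1 and at 0.01 on day 10, and the channel KAT1 was down on day 10 (−0.55). MYB60 had the largest difference in size, 0.80 ± 0.25 (limma adjusted p = 0.25), with effects of −0.61 on day 1 and 0.20 on day 10. The mean of the 7 markers lay within 0.13 of control in all drought pools. The 13 shoot apex and floral markers had no called effect, and their mean lay 0.04 to 0.17 above control in the drought pools. The part of cell type shares in the results for other genes was not tested.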

How the data were processed

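RNA from pools of young leaves was labelled with biotin and hybridised to ATH1 arrays, per the labels' protocols. The authors deposited log2 expression values made with RMA in the affy package, per the submitters' processing notes. Neither the versions nor the build behind the regrouping of probes by locus is stated in the sources used here. RMA is quantile-based, so a shift shared by most genes would be removed. The 56 control probe sets were left out, which left 21461, of which 72 are antisense. Of 21389 sense loci, 21164 were found in a RefSeq table and 8982 had a symbol.

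Drought minus control on each day, and the difference between the days, were estimated as contrasts of 4 group means with lmFit and eBayes of limma 3.58.1 (R 4.3.3). Degrees of freedom were 4 residual and 4.44 prior. All tests were two-sided, with Benjamini-Hochberg adjustment over all 21461 probe sets and a threshold of 0.05. Errors are standard errors of this fit, and groups overlap where the ranges of their arrays do. The script was tested on simulated data.

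The 35 gene lists (602 entries, of which 545 were measured, 53 were not measured and 4 did not match by name) and the tests were chosen with earlier results of these data known, so no test was run over a list. Named genes are the 15 largest called differences per direction with a symbol, up to 3 called members and the 2 members with the largest absolute difference in each list, a set chosen with earlier results known, and the 4 smallest p-values per form of called difference. Genes named beyond this rule were chosen after their values were seen.

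Arrays were not paired by replicate number in the main fit, since the labels do not say that a number marks a shared tray or batch. The replicate differences of drought and control correlated at 0.03 on day 1 and 0.062 on day 10, which does not settle the matter. Alternatives were all 12 arrays in the fit, array weights, trend and robust eBayes, cyclic loess, quantile normalization of the 8 arrays, a filter on dim probe sets, a replicate block, and leaving out each array. A fit to the 4 arrays of a day alone was added after seeing the data.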

Additional observations from a re-analysis of the deposited data

Results flagged for a closer look

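The drought effect differed between the 2 days, by the interaction contrast over all probe sets, in 12 probe sets. The difference (day 10 effect minus day 1 effect) was −4.18 for LTP4, −3.52 for TCH4, −2.08 for AT4G17470, −1.51 for AT1G68670, −1.45 for XCP2 and −1.22 for CPUORF47. It was 1.15 for AT4G38540, 1.29 for ACR3, 1.35 for AT5G61520, 1.39 for AT2G17710, 1.94 for AT3G44450 and 2.01 for GLN1;4. All 12 remained called in 7 of the 15 alternatives to the fit, and none of them in 5. Groups of 2 arrays are too small for a test of outlying arrays.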

How the results depend on the processing

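The number of called differences, 12, differed between settings. It was 0 with all 12 arrays in the fit, 22 with array weights, 24 with trend and robust eBayes, 6 with quantile normalization of the 8 arrays (4 higher and 2 lower, against 6 and 6) and 39 with a replicate block within each day (6 higher and 33 lower). Cyclic loess gave 14 and the filter on dim probe sets 16. Leaving out 1 array gave 0 to 511. The number with opposite effects, 5, became 0, 10, 10, 2 and 10 under the first 5 of these settings and 9 with the dim filter, and 0 to 49 with 1 array left out. Of the day 1 effects, 143 were called, against 4 with all 12 arrays, 380 with array weights, 38 with the replicate block and 3 to 479 with 1 array left out. Of the day 10 effects, 767 were called, against 23 with all 12 arrays, 0 when the 4 arrays of that day were fitted alone (3038 at an unadjusted p under 0.05), and 78 to 1940 with 1 array left out. Cyclic loess moved the day 10 split from 403 higher and 364 lower to 301 and 438. The causes were not tested.

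Among 91 genes and the settings tried, 1214 of 1346 pairs kept direction and side of the threshold, 79 lost and 45 gained it, and 8 reversed. Only a gene called in the main fit could lose its call, so all 79 losses belong to the 12 called probe sets. For the other genes, which make up most of the pairs, keeping the side of the threshold means staying uncalled. HAI2 (0.02) had −0.03 with cyclic loess, and from −0.26 to 0.3 with 1 array left out: −0.17 and −0.18 without replicate 2 of day 1 control or drought, −0.26 without day 10 control replicate 2 and −0.22 without day 10 drought replicate 1. Without that last array, ELF4 had 0.19 and PRR3 0.23, the highest of ranges that reached down to −2.03 and −1.56. Without day 1 control replicate 1, ERD5 had −0.25, in a range up to 0.67. The list medians moved by more than their spread in 20 of 524 pairs, and 13 lists changed sign somewhere. The jasmonate response median stayed between −1.84 and −1.22 and the ABA- and dehydration-responsive one between −1.21 and −0.55.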

Other observations

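No difference between the days was called among 19 glucosinolate, 17 flavonoid and anthocyanin or 13 wax genes, where 0.0559% of all probe sets were called. Of the glucosinolate genes, none was called on day 1, where 0.666% of all probe sets were. On day 10 the regulators MYB51 (0.94) and MYB28 (0.58) rose, where 1.88% of all probe sets did. The regulator MYB34 (−2.01) and the enzymes SOT16 (−1.16) and UGT74B1 (−0.93) fell, where 1.7% of all probe sets did. The median difference was −0.39, with 14 below 0. None of 17 flavonoid and anthocyanin genes was called on day 1 or day 10, where 0.666% and 3.57% of all probe sets were. The anthocyanin enzymes DFR and GSTF12 had day 10 effects of 1.69 ± 0.38 and 1.90 ± 0.46 (limma adjusted p = 0.0511 and 0.0618), with drought pools at 8.20 and 9.57 against 7.38 and 7.0 for DFR.

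The iron reductase FRO3 and the nicotianamine synthase NAS4 had day 1 effects of −1.26 and −0.89 and day 10 effects of 0.09 and −0.01, none of which passed. Of the 13 wax genes, 1 fell on day 1 and 2 fell on day 10, where 0.256% and 1.7% of all probe sets did, and none rose. KCS1 fell on both days, by 0.78 ± 0.09 and 1.05 ± 0.09 (limma adjusted p = 0.0152 and 0.00249). The wax genes CER1 and WSD1 had differences of −0.77 and −0.70, neither called.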
